A study of Homo sapiens with 10 samples.

Results

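The DNA mismatch repair genes MSH3, MSH6, MLH3, PMS1 and PMS2 were examined in U2OS cells, a human osteosarcoma line, after treatment with PD0332991 or with its solvent. A gene counted as measured where a probe set of the deposited table was annotated to its symbol alone, which held for 3 of the 5 genes (MSH6, MLH3 and PMS1), each with 1 probe set, out of 14232 such genes and 21980 probe sets in all. PMS2 has 1 probe set that is also annotated to its pseudogene PMS2CL, and MSH3 is on no probe set that the annotation used here names. The study compared 5 arrays of cells given PD0332991 for 4 h with 5 arrays of cells given DMSO for 4 h, all grown in McCoy medium with 10% serum. PD0332991, also called palbociclib, blocks the cell cycle kinases CDK4 and CDK6. Per the labels the dose was 1 mM; cell studies with this drug usually work in the micromolar range, and no other source for the dose was used here. Array names in the labels divide the arrays into set 1, with replicates 1 to 3 of both treatments, and set 2, with replicates 4 and 5 of both.

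Mismatch repair corrects base mismatches and small insertion or deletion loops that escape the proofreading of DNA polymerases. MutS heterodimers find the mismatch: MSH6 is the partner in the complex that reads single mismatches and small loops, and MSH3 the partner in the complex that reads larger loops. MutL heterodimers then act: the complex with PMS2 nicks the strand to be removed, the complex with MLH3 serves mainly in meiotic recombination, and the role of the complex with PMS1 is poorly understood. The exonuclease EXO1 removes the strand, the clamp PCNA and its loader RFC and the protein RPA attend the gap, DNA polymerase delta fills it and LIG1 seals it. Many of these factors also serve replication, and genes of that kind are commonly controlled by E2F transcription factors, which the kinases CDK4 and CDK6 release from the RB protein.

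The promoter windows of the 3 measured genes are shown because the inhibitor acts upstream of E2F factors and 1 of them holds a word of the E2F type. Sequences are from RefSeq, build GRCh38.p14, and cover 250 bases before to 50 bases after an annotated start, read along the gene's strand. Capitals mark a match to TTTCCCGC, TTTGGCGC, TTTGCCGC or TTTCGCGC, searched on both strands. MSH6 has 4 such windows in the table, of which the one farthest upstream is printed (chr2:47782895-47783194, plus strand). MLH3 has 1 (chr14:75051418-75051717, minus strand) and PMS1 has 1 (chr2:189784200-189784499, plus strand).
MSH6: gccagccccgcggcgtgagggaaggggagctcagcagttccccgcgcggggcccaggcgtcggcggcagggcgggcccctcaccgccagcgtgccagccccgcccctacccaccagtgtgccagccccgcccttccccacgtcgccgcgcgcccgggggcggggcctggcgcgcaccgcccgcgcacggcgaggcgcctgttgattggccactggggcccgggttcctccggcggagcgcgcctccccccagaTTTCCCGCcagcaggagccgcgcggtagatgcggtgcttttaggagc
MLH3: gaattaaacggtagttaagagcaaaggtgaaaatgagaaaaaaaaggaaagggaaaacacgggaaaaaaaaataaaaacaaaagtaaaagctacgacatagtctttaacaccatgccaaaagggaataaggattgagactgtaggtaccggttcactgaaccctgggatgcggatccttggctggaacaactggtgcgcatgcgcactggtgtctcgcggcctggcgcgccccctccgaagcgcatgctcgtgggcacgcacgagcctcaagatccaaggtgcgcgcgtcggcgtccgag
PMS1: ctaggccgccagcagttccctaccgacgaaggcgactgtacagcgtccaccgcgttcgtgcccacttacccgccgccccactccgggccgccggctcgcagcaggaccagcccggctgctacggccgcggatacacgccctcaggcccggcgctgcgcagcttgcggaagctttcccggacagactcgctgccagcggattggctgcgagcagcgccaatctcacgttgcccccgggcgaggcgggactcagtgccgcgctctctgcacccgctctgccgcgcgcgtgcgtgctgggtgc
The MSH6 window held TTTCCCGC on its plus strand at bases 254 to 261, just after the annotated start, and its other 3 windows held none of the words. The MLH3 and PMS1 windows held none. Of the genes without a value here, the MSH3 window held TTTGGCGC at bases 144 to 151, overlapped by TTTCGCGC on the other strand at bases 148 to 155, and both PMS2 windows held TTTGCCGC. Among all 35116 promoter windows of the table, 1164 (3.32%) held at least 1 of the words, and 3.99% of 27305 genes did in any window. Of 11 excision and resynthesis genes described below that had a value and a window, 3 held a word (EXO1, RFC3 and LIG1). Of 5 E2F targets described below that had a value and a window, 3 did (E2F2, CDC25A and DTL). Whether the words go with the treatment response was not tested. The word TTTGAA, which occurs in promoters of genes expressed late in the cell cycle, was in no window of the 5 genes and in 15.2% of all windows. A match is a description of the letters and does not show that a factor binds there.

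DMSO replicate 1 stood apart from the other arrays. Its values correlated with those of the other 9 at r = 0.958 to 0.967 across probe sets, while the 36 pairs among those 9 had r = 0.972 to 0.991. Array medians lay within 6.95 to 7.06 on the log2 scale. The E2F targets CCNE2, CCNE1, E2F2, CDC25A, DTL and MCM10 were listed with their results on these arrays known, so they describe the response and do not test it. All 6 were lower with PD0332991 at a limma adjusted p of 0.00289 to 0.0499, among 0.0409% of probe sets called lower. None of the 6 kept its call with a replicate block (limma adjusted p = 0.0607 to 0.196). With 1 array left out, E2F2 kept its call in 10 of 10 fits, CCNE2, CCNE1 and CDC25A in 5 each, and DTL and MCM10 in 1 each. Of 9 measured mesenchymal and osteosarcoma markers 7 lay above the median of the table, among them VIM, SPARC and COL1A1. COL1A2 and TWIST1 lay below it, at means of 6.55 and 6.20. Of 9 measured epithelial markers 2 lay above it (KRT18 and CLDN4). Of 8 measured blood cell markers none lay above it, with the leukocyte gene PTPRC at a mean of 3.90. The mean of the epithelial list ran from 6.16 to 6.65 on PD0332991 arrays and from 6.11 to 6.56 on DMSO arrays, and that of the blood list from 4.96 to 5.51 on PD0332991 arrays and from 5.09 to 5.55 on DMSO arrays, so neither separated the treatments. The mean of the mesenchymal list ran from 9.76 to 10.00 on PD0332991 arrays and from 9.65 to 9.93 on DMSO arrays, which overlap. In that list 1 gene was higher at an unadjusted limma p under 0.05, as were 1.41% of all probe sets. Probes of different genes differ in brightness, so the place of a marker above or below the table's median is coarse, and the comparisons that follow are between arrays for the same probe set.

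MSH6, the mismatch-recognition subunit, had lower values on every PD0332991 array than on any DMSO array, but the difference did not pass the adjustment over all probe sets. Its log2 values were 8.68, 8.81, 8.89, 8.59 and 8.55 on PD0332991 replicates 1 to 5 and 9.37, 9.18, 9.30, 9.10 and 8.99 on DMSO replicates 1 to 5. The highest PD0332991 array, replicate 3, was below the lowest DMSO array, replicate 5, so the groups did not overlap, over all arrays or within either set. MSH6 averaged 8.71 ± 0.15 with PD0332991 and 9.19 ± 0.15 with DMSO (log2, SD, n = 5 each), a log2 fold change of -0.48 with a standard error of 0.09. On a linear scale this is 1.40-fold lower, with a 95% confidence interval of 1.22 to 1.60, or 28.4% less signal. The limma p was 0.000235, rank 24 among 21980 probe sets, and the Benjamini-Hochberg adjusted p was 0.207. In that fit 9 probe sets passed as lower (0.0409%) and 2 as higher (0.00910%); at an unadjusted p under 0.05 there were 606 lower (2.76%) and 311 higher (1.41%). Probe sets whose groups did not overlap over all 10 arrays with PD0332991 lower made up 0.560% of the table, and within both sets 1.45%; those with PD0332991 higher made up 0.214% and 0.814%. In bulk RNA, fewer cells that express a gene and less RNA per cell cannot be told apart.

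The size of the MSH6 difference was close in both array sets, at -0.49 in set 1 and -0.47 in set 2, and the interaction of treatment and set was 0.02 (95% confidence interval -0.42 to 0.45, limma adjusted p = 1.00). Without DMSO replicate 1, on which MSH6 was highest, the log2 fold change was -0.46 (limma adjusted p = 0.108), and without both arrays numbered 1 it was -0.43 (limma adjusted p = 0.256). Leaving out each array in turn gave -0.51 to -0.45 and no call. When arrays were weighted by their quality, MSH6 passed at a limma adjusted p of 0.0274 with a log2 fold change of -0.47, in a fit that called 50 probe sets as lower and 13 as higher.

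**Figure D1:**
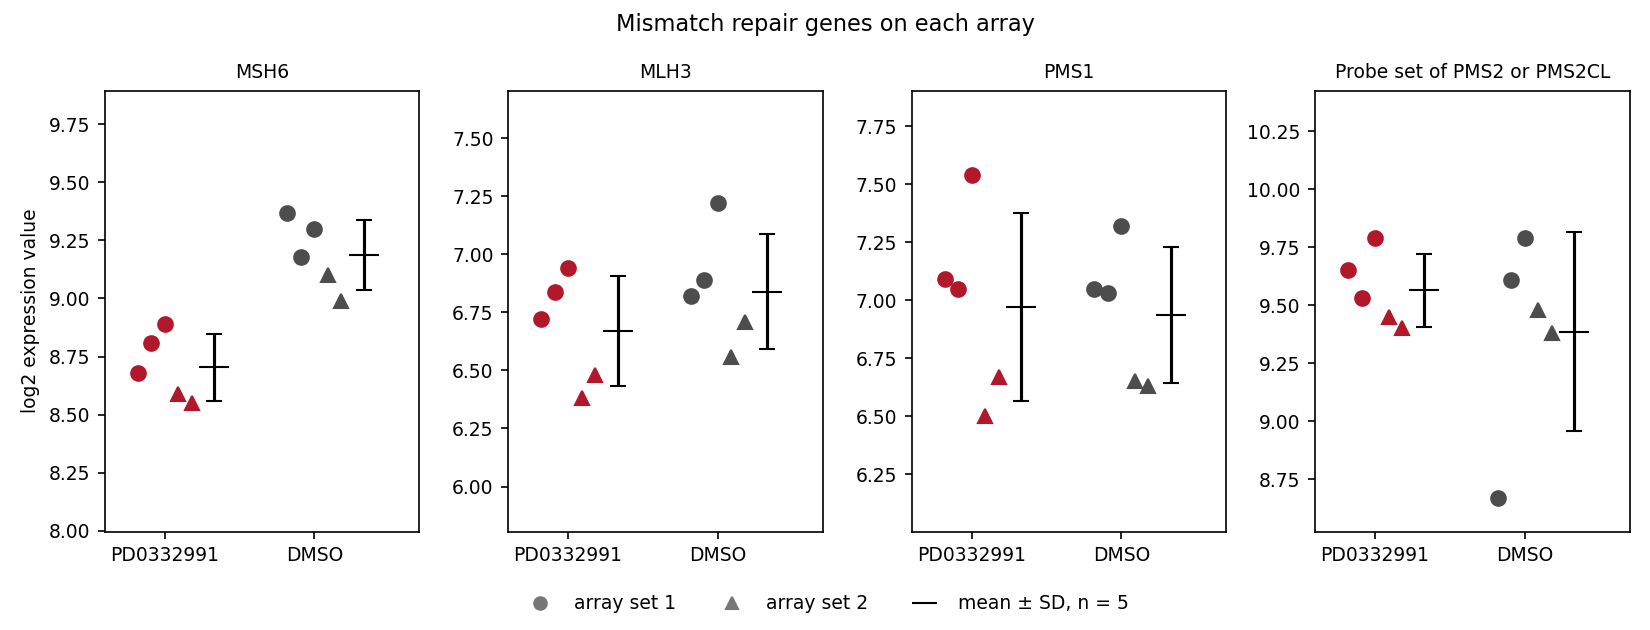
log2 expression value on each array for MSH6, MLH3, PMS1 and the probe set annotated to both PMS2 and PMS2CL, with PD0332991 in red, DMSO in grey, circles for array set 1, triangles for array set 2, and bars for the mean ± SD of 5 arrays; each panel spans the same log2 range. MSH6 is at 8.55 to 8.89 with PD0332991 and at 8.99 to 9.37 with DMSO, while the groups overlap in the other panels and set 2 lies low for PMS1 in both treatments.

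MLH3, the MutL subunit best known from meiotic crossing-over, had a smaller difference that did not pass. Its log2 values were 6.72, 6.84, 6.94, 6.38 and 6.48 on PD0332991 replicates 1 to 5 and 6.82, 6.89, 7.22, 6.56 and 6.71 on DMSO replicates 1 to 5. The groups overlapped over all arrays and within set 1. They did not overlap within set 2, which holds 2 arrays per treatment, too few for a separation there to be read as a result. The means were 6.67 ± 0.24 with PD0332991 and 6.84 ± 0.24 with DMSO (SD, n = 5 each), a log2 fold change of -0.17 (95% confidence interval -0.40 to 0.06, limma adjusted p = 1.00). Within sets the differences were -0.14 and -0.21, and with 1 array left out the value ran from -0.21 without DMSO replicate 1 (limma adjusted p = 0.857) to -0.11 without DMSO replicate 3 (limma adjusted p = 0.807).

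PMS1, a further MutL subunit, showed no detectable difference. Its log2 values were 7.09, 7.05, 7.54, 6.50 and 6.67 on PD0332991 replicates 1 to 5 and 7.05, 7.03, 7.32, 6.65 and 6.63 on DMSO replicates 1 to 5. Replicate 3 was the highest array in both treatments, and the groups overlapped. The means were 6.97 ± 0.40 with PD0332991 and 6.94 ± 0.29 with DMSO (SD, n = 5 each), and the log2 fold change was 0.04 (95% confidence interval -0.23 to 0.30, limma adjusted p = 1.00). The interval leaves room for a decrease of 0.23 or an increase of 0.30 on the log2 scale, so absence of a change is not shown. The sign was not stable, with 0.09 in set 1 and -0.05 in set 2, and -0.06 without PD0332991 replicate 3. ORMDL1, which encodes a regulator of sphingolipid synthesis and starts within 1000 bases of PMS1 on the opposite strand, had a log2 fold change of -0.04 (95% confidence interval -0.42 to 0.35).

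Array set moved PMS1 and MLH3 more than treatment did. PMS1 averaged 6.61 in set 2 and 7.18 in set 1, a difference of -0.57 over both treatments, MLH3 6.54 and 6.91 (-0.37), and MSH6 8.81 and 9.04 (-0.23). Both sets hold both treatments, so this shift does not enter the treatment differences, and its source was not tested. The interaction of treatment with set was -0.06 for MLH3 (95% confidence interval -0.58 to 0.45) and -0.15 for PMS1 (-0.73 to 0.43). No probe set passed that limma interaction over the table (0%, with 2.56% at an unadjusted p under 0.05).

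The probe set annotated to both PMS2, the subunit that carries the nicking activity, and PMS2CL cannot be assigned to either gene. Its log2 values were 9.65, 9.53, 9.79, 9.45 and 9.40 on PD0332991 replicates 1 to 5 and 8.67, 9.61, 9.79, 9.48 and 9.38 on DMSO replicates 1 to 5. DMSO replicate 1 lay below the other 9 arrays, which shared 9.38 to 9.79. The log2 fold change was 0.18 (95% confidence interval -0.25 to 0.61, limma adjusted p = 1.00), made up of 0.30 in set 1, which holds that array, and -0.01 in set 2.

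Whether the measured genes differed from each other in their response was tested on the log2 difference of 2 genes on each array, with treatment permuted exactly within array sets (120 assignments, 2-sided, smallest possible p = 0.0167), for all 3 pairs. MSH6 minus PMS1 was 1.73 ± 0.28 with PD0332991 and 2.25 ± 0.19 with DMSO (SD, n = 5 each), so MSH6 was lower relative to PMS1 by a log2 difference of -0.52 (exact permutation p = 0.0167, 0.025 after Benjamini-Hochberg adjustment over the 3 pairs). MSH6 minus MLH3 was 2.03 ± 0.11 with PD0332991 and 2.35 ± 0.20 with DMSO, a difference of -0.31 (exact permutation p = 0.0167, adjusted 0.025). PMS1 minus MLH3 was 0.30 ± 0.19 with PD0332991 and 0.09 ± 0.11 with DMSO, a difference of 0.20 (exact permutation p = 0.0333, adjusted 0.0333). The pairs with MSH6 were added after the values were seen. MSH6 was brighter (mean 8.95 over the arrays) than PMS1 (6.95) and MLH3 (6.76). Whether the level of a probe set enters these differences was not tested. The adjusted p of all 3 pairs reached 0.05 or more after quantile normalization or cyclic loess (exact permutation, adjusted 0.05 to 0.0667). With 1 array left out the test kept its call in 6 of 10 fits for MSH6 minus PMS1, in 5 of 10 for MSH6 minus MLH3 and in 2 of 10 for PMS1 minus MLH3, with the direction the same in each. The unadjusted exact permutation p of MSH6 minus PMS1 stayed at 0.0167, the smallest possible, after both normalizations and in all 10 of these fits. Its adjusted p moved with the p of the other pairs.

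Most measured genes that act after mismatch recognition had, like MSH6, lower values with PD0332991, without passing the adjustment. Of 16 excision and resynthesis genes listed, 13 were measured: PD0332991 values were below DMSO values for 12 and above for 1, and the list's median log2 fold change was -0.16. Over all probe sets 55.2% were lower and the median was -0.02. None passed the adjustment (limma, smallest adjusted p = 0.141), 4 had an unadjusted p under 0.05, all lower (2.76% of the table), and 2 had groups that did not overlap (0.560% of the table). Without DMSO replicate 1, 11 of 13 were lower, the median was -0.20 and EXO1 passed (limma adjusted p = 0.0495). That fit called 20 of 21980 probe sets as lower. Without both arrays numbered 1, none passed and the median was -0.17. PCNA, RPA3 and HMGB1 had no single-symbol probe set in the annotation used here.

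EXO1, the exonuclease that degrades the mismatched strand, had log2 values of 8.98, 8.72, 9.20, 8.48 and 8.56 on PD0332991 replicates 1 to 5 and 9.39, 9.61, 9.80, 9.48 and 9.40 on DMSO replicates 1 to 5. The groups did not overlap, and EXO1 was 1.68-fold lower after PD0332991 (95% confidence interval 1.39 to 2.04, limma adjusted p = 0.141). EXO1 passed in 5 of 21 alternatives: quantile normalization, cyclic loess, single-symbol probe sets only, array weights and leaving out DMSO replicate 1. POLD3, a subunit of DNA polymerase delta, had log2 values of 7.50, 7.22, 8.07, 7.34 and 7.61 with PD0332991 and 8.27, 8.56, 8.72, 8.25 and 8.29 with DMSO, again without overlap. The PD0332991 values were 1.83-fold lower (95% confidence interval 1.42 to 2.34, limma adjusted p = 0.207), and of the 21 alternatives only array weights called POLD3. RFC4, a subunit of the clamp loader, ran from 9.05 to 9.48 with PD0332991 and from 9.42 to 9.85 with DMSO, overlapping over all arrays but not within either set, and was 1.32-fold lower (limma adjusted p = 0.652). The remaining 10 genes of this list had log2 fold changes from -0.32 to 0.02.

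Of 8 accessory factors and meiotic homologs listed, 5 were measured. MSH4, MSH5 and FAN1 had no single-symbol probe set in the annotation used here, so no meiotic MutS homolog was among the 5. Of these 5 genes 4 were lower and 1 higher, against 55.2% lower over all probe sets, around a median of -0.14. None passed in limma, and 1 was lower at an unadjusted p under 0.05, as were 2.76% of all probe sets. Without DMSO replicate 1 all 5 were lower, 2 of them at an unadjusted p under 0.05, and the median was -0.27. In that fit 818 of 21980 probe sets were lower at an unadjusted limma p under 0.05, more than the 606 in the fit of all arrays. EXO5, an exonuclease, had a log2 fold change of -0.30, MCM9, a helicase linked to mismatch repair, -0.23, and its partner MCM8 -0.14, all at a limma adjusted p of 1.00. MCM9 was -0.40 without DMSO replicate 1 (limma adjusted p = 0.253) and -0.14 without DMSO replicate 2. MCM8 was -0.27 without DMSO replicate 1, -0.23 without PD0332991 replicate 3, -0.080 without PD0332991 replicate 2 and -0.050 without DMSO replicate 3.

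**Figure D2:**
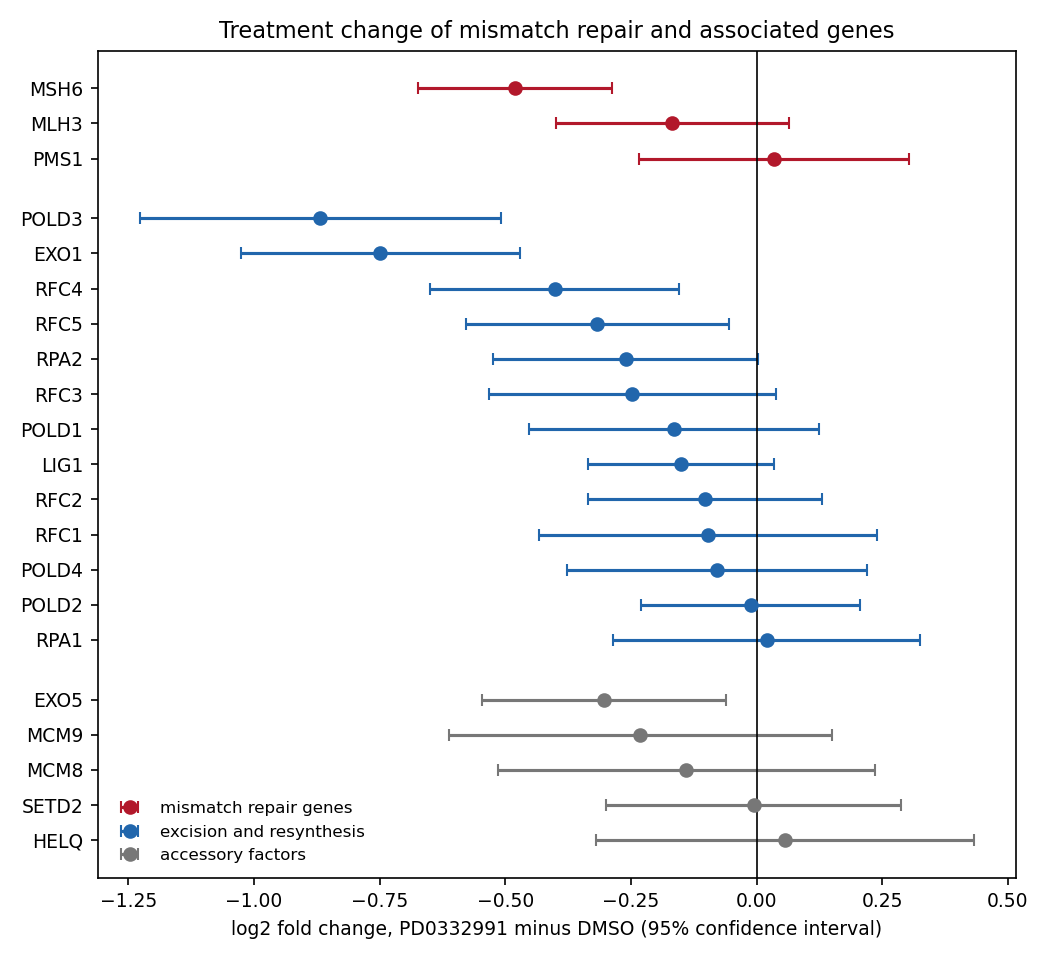
log2 fold change (PD0332991 minus DMSO, x axis) with its 95% confidence interval from the moderated limma fit on 5 arrays per treatment for the 3 measured mismatch repair genes (red), 13 excision and resynthesis genes (blue) and 5 accessory factors (grey). POLD3, EXO1 and MSH6 have values of -0.87, -0.75 and -0.48 with intervals below 0. The intervals of RFC4, RFC5 and EXO5 also lie below 0, at values of -0.40, -0.32 and -0.30. PMS1 and RPA1 lie close to 0.

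The other excision repair pathways served as a comparison. Of 15 measured base excision repair genes 12 had a log2 fold change below 0 and 3 above, around a median of -0.06, where 55.2% of all probe sets were below 0. None passed in limma, and 3 were lower at an unadjusted p under 0.05, as were 2.76% of all probe sets. The groups of 1 gene, APEX2, did not overlap over all 10 arrays, with PD0332991 lower (0.560% of the table). Within both sets the groups of 2 genes, UNG and APEX2, did not overlap, with PD0332991 lower (1.45% of the table). Without DMSO replicate 1 the median was -0.09, and without both arrays numbered 1 it was -0.12. The smallest p were those of UNG, the uracil glycosylase that acts at replication forks, at -0.42 (limma adjusted p = 0.408), the glycosylase gene NEIL3 at -0.38 and the endonuclease gene APEX2 at -0.35. Of 17 measured nucleotide excision repair genes 13 had a log2 fold change above 0 and 4 below, around a median of 0.12, and none had an unadjusted p under 0.05. ERCC2, a helicase of the repair factor TFIIH, had -0.13, CETN2, a partner of the damage sensor XPC, 0.17 and GTF2H1, a TFIIH subunit, 0.17. CETN2 was 0.069 without DMSO replicate 1, and GTF2H1 was 0.088 without DMSO replicate 1, 0.074 without PD0332991 replicate 5 and 0.27 without DMSO replicate 3. Without DMSO replicate 1 this median was 0.01, with 6 of 17 lower, so the upward tilt moved with that array. The lists were not tested against each other.

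The genes most like each mismatch repair gene were taken by the Pearson correlation of log2 values centred within array set over the 10 arrays, as a description without a test. For MSH6 they were SRSF4, a splicing factor gene, at r = 0.985 (Spearman 0.952, and 0.979 without the 2 arrays farthest from the MSH6 median), and PHLPP1, a phosphatase gene, at r = 0.959 (Spearman 0.915, and 0.983 without those arrays). MSH6 separates the treatments, so these values hold mainly the treatment difference; centred within treatment and set, r was 0.873 for SRSF4 and 0.545 for PHLPP1. SRSF4 ran from 9.82 to 9.99 with PD0332991 and from 10.24 to 10.46 with DMSO, a log2 fold change of -0.43 (limma adjusted p = 0.291). PHLPP1 ran from 6.54 to 6.82 with PD0332991 and from 7.04 to 7.43 with DMSO, a log2 fold change of -0.52 (limma adjusted p = 0.193). Neither gene overlapped between treatments (0.560% of the table did not, with PD0332991 lower). Both were picked for likeness to MSH6, which separates the treatments, so this is not a separate result. For MLH3 they were LEAP2 (r = 0.945, 0.749 without the farthest arrays) and PLCL2 (r = 0.935, 0.847). For PMS1 they were ARID4B, which encodes a chromatin protein (r = 0.972, 0.908), and TBC1D1, a Rab GTPase-activating protein gene (r = 0.967, 0.931), with log2 fold changes of 0.05 and 0.03. They were chosen for the highest values among all single-symbol genes. LEAP2 was dim, at a mean of 4.69, where the lower quartiles of the arrays were 5.05 to 5.44. Among the mismatch repair genes themselves r was 0.60 for MSH6 with MLH3, 0.52 for MLH3 with PMS1 and 0.01 for MSH6 with PMS1 over the same 10 arrays, which share their treatment and hybridisation.

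**Figure D3:**
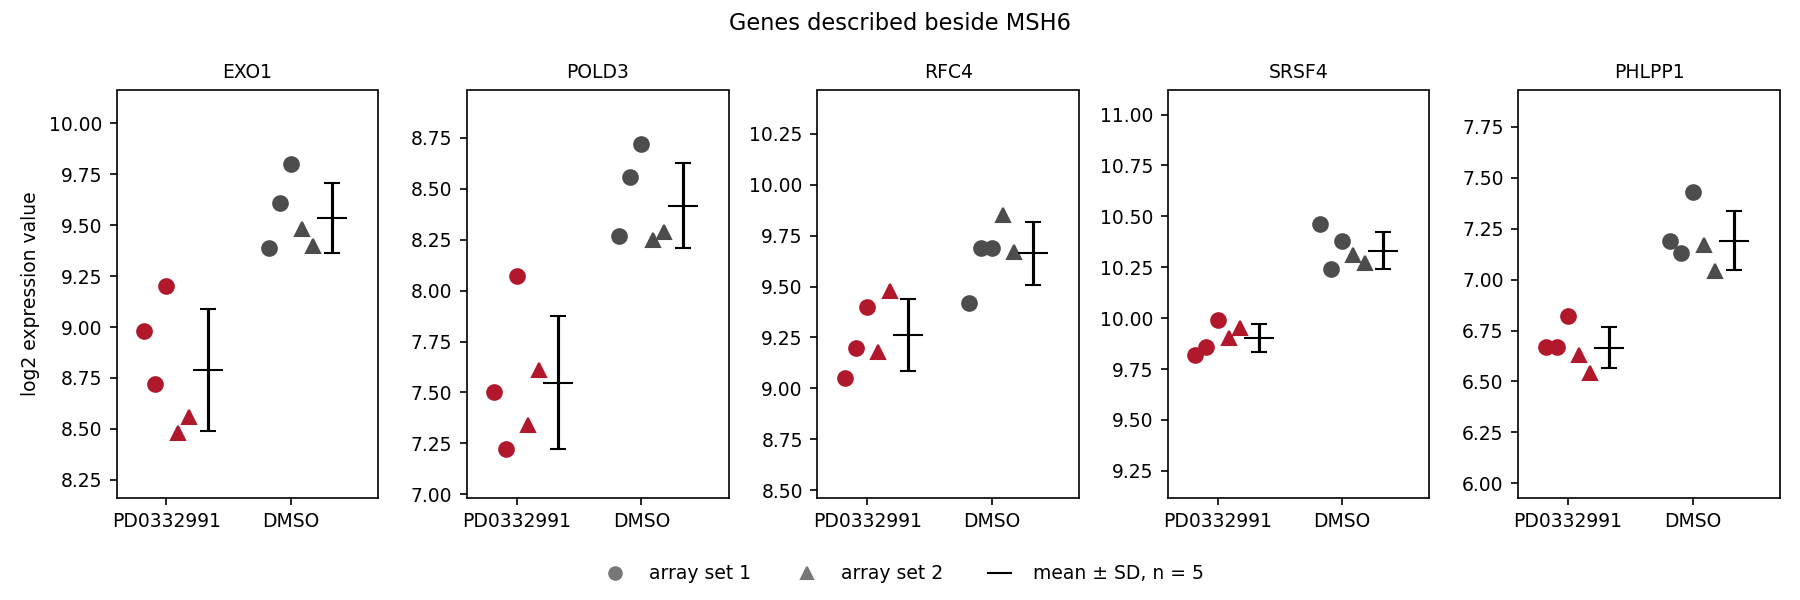
log2 expression value on each array for the excision and resynthesis genes EXO1, POLD3 and RFC4 and for SRSF4 and PHLPP1, the genes most like MSH6, with PD0332991 in red, DMSO in grey, circles for array set 1, triangles for array set 2, and bars for the mean ± SD of 5 arrays. In every panel except RFC4 all PD0332991 arrays lie below all DMSO arrays; RFC4 overlaps, at 9.05 to 9.48 with PD0332991 and 9.42 to 9.85 with DMSO.

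**Figure D4:**
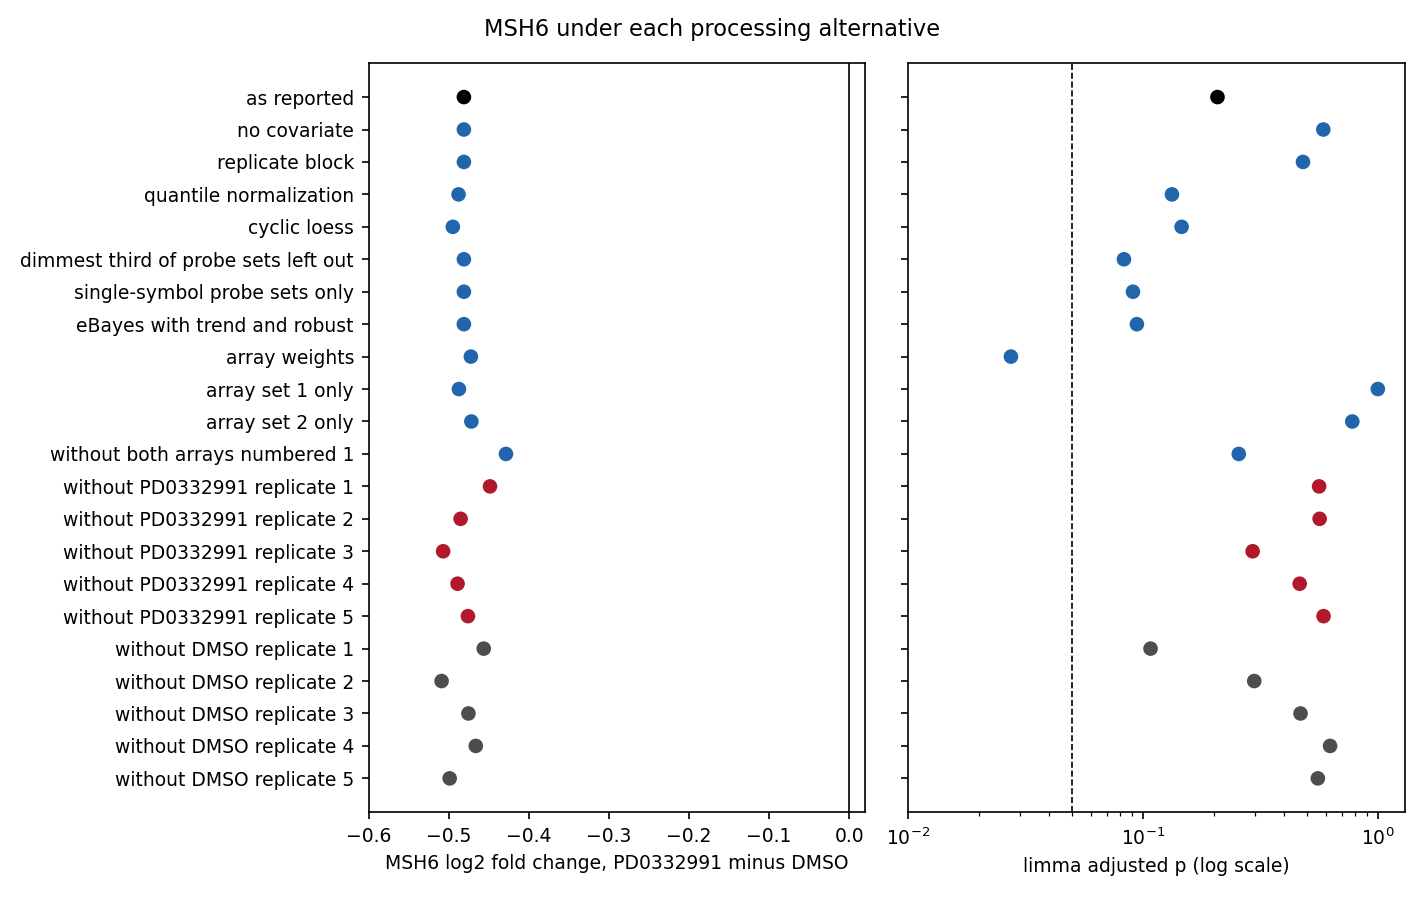
MSH6 log2 fold change (PD0332991 minus DMSO, left) and its limma adjusted p on a log scale (right) as reported (black), under 11 other settings (blue) and without each PD0332991 array (red) or DMSO array (grey); the dashed line marks 0.05. The fold change stays between -0.51 and -0.43, and the adjusted p is below the line with array weights alone, at 0.0274.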

How the data were processed

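Gene expression was measured in U2OS cells on Affymetrix exon arrays, 5 per treatment, labelled as biological replicates. The authors deposited log2 expression values, 1 for each gene-level probe set on each array. RMA, Partek and build hg18 are named in the submitters' processing notes, without versions or parameters. RMA compresses fold changes of dim genes, no detection calls were at hand, and precision is limited by the number of arrays. Probe sets were named through the platform annotation (14432 with 1 symbol, 2408 with several, 5140 unnamed here); 85 of 110 list genes had a single-symbol probe set, and all 85 symbols matched RefSeq (GRCh38.p14) by Entrez identifier. A gene with several probe sets was represented by the one with the highest mean.

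A linear model with array set (from the array names) as covariate was fitted in R 4.3.3 with limma 3.58.1 (lmFit and eBayes, 2-sided) and adjusted by Benjamini-Hochberg over 21980 probe sets, with a threshold of 0.05. Array set differences were tested as an interaction, and differences between genes by exact permutation of treatment within sets. The procedure was tested on simulated data. The members, the gene lists and the tests were chosen with earlier results of these data known. Named genes were the members, the 2 most correlated genes of each, the 3 smallest p of each repair list and any that passed, the E2F targets, and divergent neighbours within 1000 bases. Markers named are examples chosen after their values were seen. Planned pair tests with MSH3 or PMS2 had no assignable probe set and were not run. Alternatives covered the covariate, replicate block, normalization, filters, moderation, array weights, single sets and left-out arrays. Plots were made in Python 3.11.15 with Matplotlib 3.10.9.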

Additional observations from a re-analysis of the deposited data

Results flagged for a closer look

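In 3 of 64 groups of 5 arrays 1 array lay far from the other 4, and no mismatch repair gene was among them. Chance gives 1 in 20 groups where groups are independent. These groups share arrays, and MCM9 and ORMDL1 were both flagged on DMSO replicate 1, which stood apart, so the count was not read as a test. CCNE1 was at 9.41 on PD0332991 replicate 3 and at 9.10 to 9.18 on the other PD0332991 arrays. MCM9 was at 6.48 on DMSO replicate 1 and at 7.24 to 7.46 on the other DMSO arrays. ORMDL1 was at 7.79 on DMSO replicate 1 and at 8.25 to 8.35 on the other DMSO arrays.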

How the results depend on the processing

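MSH6 and MLH3 kept a negative log2 fold change in all 21 alternatives, and MLH3 and PMS1 passed in none. MSH6 passed with array weights (-0.47, limma adjusted p = 0.0274) and not in the other 20 (0.0830 to 0.999); with 1 array left out it ran from -0.51 to -0.45 (adjusted p 0.108 to 0.625). PMS1 was -0.042 with array weights, -0.053 in set 2 alone and -0.058 to 0.079 with 1 array left out. Signs also turned for CETN2 (-0.084 in set 2), ORMDL1 (0.10 in set 1, -0.15 to 0.11 with 1 array left out), ARID4B (-0.058 with array weights and in set 2, -0.076 to 0.13 with 1 array left out) and TBC1D1 (-0.047 with array weights, -0.075 in set 2, -0.059 to 0.082 with 1 array left out).

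Probe sets past the threshold (9 lower, 2 higher) numbered 1 and 1 with the replicate block, 14 and 4 over single-symbol probe sets, 50 and 13 with array weights, 0 and 0 in either set alone (445 and 181 in set 1, 710 and 560 in set 2, at an unadjusted limma p under 0.05), and 1 higher without the covariate. Lower calls ran from 1 to 20 with 1 array left out: 20 without DMSO replicate 1, 5 without PD0332991 replicate 2 or 3, and 1 without DMSO replicate 4 or 5 or PD0332991 replicate 1, 4 or 5. Higher calls ran from 1 to 3, with 3 without DMSO replicate 1 and 1 in the other 9 fits.

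The array set difference turned sign without calls: -0.043 to 0.069 for MSH6, -0.19 to 0.013 for MLH3 and -0.24 to 0.0089 for PMS1 with 1 array left out, and 0.057 for MLH3 with array weights.

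Pair differences kept their direction but not always their call. After quantile normalization they were -0.54 for MSH6 minus PMS1, -0.34 for MSH6 minus MLH3 and 0.19 for PMS1 minus MLH3, after cyclic loess -0.55, -0.35 and 0.20. Permutation over all arrays kept both pairs with MSH6 and lost PMS1 minus MLH3 (0.20, exact permutation, adjusted p = 0.0714). The replicate block (-0.52, -0.31 and 0.20) and leaving out both arrays numbered 1 (-0.46, -0.24 and 0.22) could not pass, since their smallest possible p are 0.0625 and 0.0556. With 1 array left out the differences ran from -0.56 to -0.45, -0.37 to -0.24 and 0.14 to 0.25. MSH6 minus PMS1 lost its call without PD0332991 replicate 1, 3, 4 or 5. Its unadjusted exact permutation p was 0.0167, the smallest possible, in every fit with 1 array left out. That loss came from the adjustment over the 3 pairs. MSH6 minus MLH3 lost its call without any 1 PD0332991 array. PMS1 minus MLH3 lost its call without any array but DMSO replicate 4 or PD0332991 replicate 2. The cause was not tested for MSH6 minus MLH3 or PMS1 minus MLH3.

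Same-numbered arrays did not deviate together in every pair. Correlations of their deviations from group means were 0.04, 0.07, 0.54, 0.23 and 0.20 for replicates 1 to 5. With array set also removed they were -0.10, 0.02, 0.40, -0.35 and -0.27. The numbers were therefore not taken as pairs. On deviations from group means 4 of 10 arrays correlated best with their own number. With the block the MSH6 limma adjusted p was 0.480. No member had a further single-symbol probe set, so that alternative gave no value. Signal over background was not given.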
